A study of Mus musculus with 15 samples.

Results

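Reactive astrocytes are the state that these glial cells enter after injury or inflammation, with larger intermediate filament bundles, new cytokine receptors and secreted proteins. Work in mice sorted the induced genes into a pan-reactive class, which is induced by injuries of either kind, a class typical of neuroinflammation, and a class typical of ischaemia. Most of these genes are also used by other cells of the brain, among them endothelial cells, pericytes and microglia. The genes described here are 32 members of those classes taken by name, with no measured value in the rule: 12 pan-reactive, 10 neuroinflammatory and 10 ischaemic genes, out of 54736 in the deposited table. The choice was made with earlier results of these data known.

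Punches of medial prefrontal cortex were taken from males of the C57BL/6 strain at 8 to 10 weeks of age, and their RNA was sequenced on the BGISEQ-500 platform. Mice labelled KO are heterozygous Df(h15q13)/+ animals, a model of the human 15q13 microdeletion, and WT mice are littermates without the deletion. Going by sample titles there were 7 WT and 8 KO libraries; the design text has the 2 numbers the other way round, and the titles were used. The values are in TPM, a transcript abundance scaled to a fixed total per library after division by length, which keeps no read depth, so no counting error can be given and the precision is that of the spread between libraries.

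A punch holds every cell type of the cortex, so fewer cells of a type and less RNA per cell cannot be told apart. Astrocyte markers were abundant, with a summed level of 2844 to 3707 TPM in WT and 2411 to 3144 TPM in KO libraries over 20 markers, none of them at 0. Of the 20, 17 had lower means in KO, 11 at an unadjusted limma p under 0.05 and 0 past the threshold. The matching shares of the whole tested gene set were 45.3%, 6.21% and 0.0268%. The median log2 difference of the 20 markers was -0.23, and their part in the values of the reactive genes was not tested. The 5 deleted genes Chrna7, Otud7a, Klf13, Mtmr10 and Fan1 stood at 38.7% to 48.4% of the WT mean in KO libraries, with no overlap between the groups. KO 1 and KO 8 stand apart by their oligodendrocyte markers, at a mean log2(TPM + 1) of 5.90 and 6.34, where WT ran from 4.74 to 5.15 and the remaining 6 KO libraries from 4.20 to 4.70, and counts are also given without them. No label names individual animals, so p-values measure the spread between libraries.

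No reactive gene passed the test of KO against WT. Of the 32 genes, 22 reached a mean of 1 TPM over the 15 libraries and were tested (10 pan-reactive, 8 neuroinflammatory and 4 ischaemic), and 0 of the 22 had an adjusted p under 0.05, where 0.0268% of all 18656 tested genes did (limma on log2(TPM + 1), Benjamini-Hochberg over all tested genes). The 5 genes that passed were the deleted genes named above. The lowest adjusted p among the 22 reactive genes was 0.259. Before adjustment, 7 had a limma p under 0.05 and a lower mean in KO (Tm4sf1, Emp1, Cd14, Vim, Srgn, Gbp2 and H2-D1), against 6.21% of all tested genes, and 2 were higher (Cd44 and Amigo2), against 5.68%. Emp1 reached the filter only through its WT level, and without it 6 of 21 genes were lower at that p. Without KO 1 and KO 8 these counts were 5 and 2, against 5.56% and 5.29% of all tested genes; Tm4sf1, Emp1, Cd14, Gbp2, H2-D1, Cd44 and Amigo2 kept an unadjusted p under 0.05. The number lower was 4 without WT 7 and 11 without KO 7, where 4.33% and 6.53% of all tested genes were lower at that p. The number higher was 1 without any single one of KO 1, 3, 4 or 6, or WT 2, 5, 6 or 7, each time through the loss of Amigo2. For 0 of the 22 did the groups not overlap, where 0.134% of all tested genes had groups that did not overlap.

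**Figure D1:**
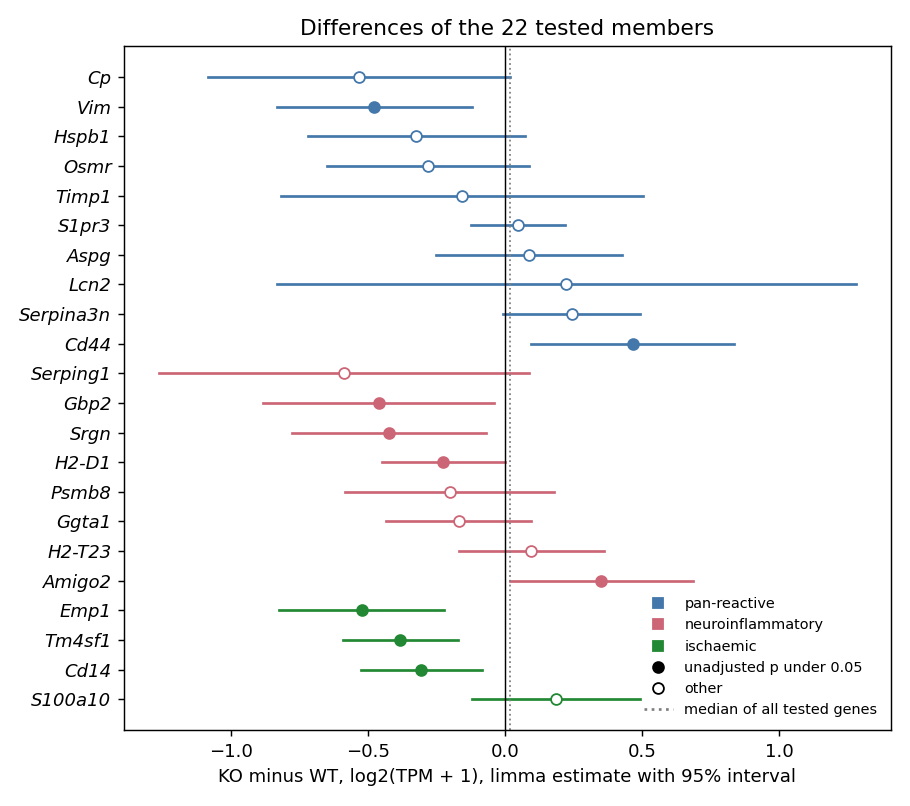
KO minus WT difference in log2(TPM + 1) for the 22 tested genes (limma estimate, horizontal axis), with its 95% interval as a line, coloured by class and ordered within each class. Filled points had an unadjusted p under 0.05; the intervals of Tm4sf1, Emp1, Cd14, Vim, Srgn, Gbp2 and H2-D1 lie below 0 and those of Cd44 and Amigo2 above it.

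The promoters of 4 genes are shown because Emp1 and Tm4sf1 had the lowest p among the reactive genes, Emp1 with the limit just given, and Gbp2 and Hspb1 varied together most closely over the libraries. Each window runs from 250 bases before to 50 bases after a RefSeq transcription start (GRCm38.p6, the mm10 build) and is written 5′ to 3′ on the gene's strand. Capitals mark matches on either strand to TTCNNNGAA, a form recognised by STAT factors of cytokine signalling, and of these 4 windows only that of Emp1 held it.
Emp1, chr6:135362681-135362980, plus strand: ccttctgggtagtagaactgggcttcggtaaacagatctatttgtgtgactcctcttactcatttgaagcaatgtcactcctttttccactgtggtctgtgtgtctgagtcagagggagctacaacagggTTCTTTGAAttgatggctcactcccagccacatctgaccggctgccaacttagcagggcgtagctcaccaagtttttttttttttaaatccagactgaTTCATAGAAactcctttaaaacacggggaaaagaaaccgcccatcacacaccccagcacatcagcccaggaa
Tm4sf1, chr3:57301939-57302238, minus strand: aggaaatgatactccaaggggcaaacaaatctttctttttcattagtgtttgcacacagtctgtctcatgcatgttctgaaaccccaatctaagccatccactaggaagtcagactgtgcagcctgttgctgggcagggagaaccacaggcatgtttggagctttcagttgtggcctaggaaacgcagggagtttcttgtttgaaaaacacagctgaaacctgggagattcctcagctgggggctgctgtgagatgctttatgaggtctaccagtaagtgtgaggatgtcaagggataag
Gbp2, chr3:142620413-142620712, plus strand: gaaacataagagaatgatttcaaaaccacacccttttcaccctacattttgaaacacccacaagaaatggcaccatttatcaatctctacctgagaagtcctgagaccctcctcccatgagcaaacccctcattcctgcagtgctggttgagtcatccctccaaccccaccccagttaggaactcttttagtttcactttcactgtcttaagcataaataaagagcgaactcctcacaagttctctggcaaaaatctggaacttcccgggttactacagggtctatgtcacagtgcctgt
Hspb1, chr5:135887669-135887968, plus strand: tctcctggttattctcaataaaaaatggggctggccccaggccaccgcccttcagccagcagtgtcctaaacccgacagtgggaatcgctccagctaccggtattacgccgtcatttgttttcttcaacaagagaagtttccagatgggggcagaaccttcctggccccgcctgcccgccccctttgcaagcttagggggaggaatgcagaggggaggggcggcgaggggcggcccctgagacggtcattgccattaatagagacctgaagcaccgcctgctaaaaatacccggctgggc

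Windows were found for 26 of the 32 genes, 30 windows in all. The STAT form, which reads the same on either strand, was in 4 of these windows (Emp1, Psmb8, Steap4 and 1 start of Tgm1), and in 8.30% of 32851 windows of the same length over all genes. Emp1 held it at 120 and at 22 bases before its first start, and the window of its other start held none. No matches overlapped each other, and a match is only a stretch of letters, not evidence of binding. Forms recognised by other factors, such as those of the interferon response, are not marked, so a window without capitals may still hold them.

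The classes differed in how much of them was present in this tissue. The ischaemic class held the most abundant gene, S100a10 at a mean of 46.8 TPM, and also 6 of the 10 genes below a mean of 1 TPM, B3gnt5, Ptx3, Tgm1, Cd109, Slc10a6 and Clcf1. Steap4 and Cxcl10 of the pan-reactive class and Iigp1 and Ugt1a1 of the neuroinflammatory class were the other 4 below that level. Vim followed S100a10 at 27.6 TPM, then H2-D1 at 21.6, Cp at 13.3, Srgn at 12.9 and Serpina3n at 10.9 TPM. The steps from S100a10 to Vim and from H2-D1 to Cp were larger than the SD between libraries, whereas Vim and H2-D1, and Cp and Srgn, differed by less than it. Clcf1, a cytokine gene of the interleukin-6 family, was listed at 0 in all 15 libraries, and Slc10a6, a transporter gene, was listed at 0 in 14, with 0.0622 TPM in KO 7. The gene AC109138.7 overlaps Clcf1 on the same strand and has no value under that name, so the value of Clcf1 is uncertain.

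**Figure D2:**
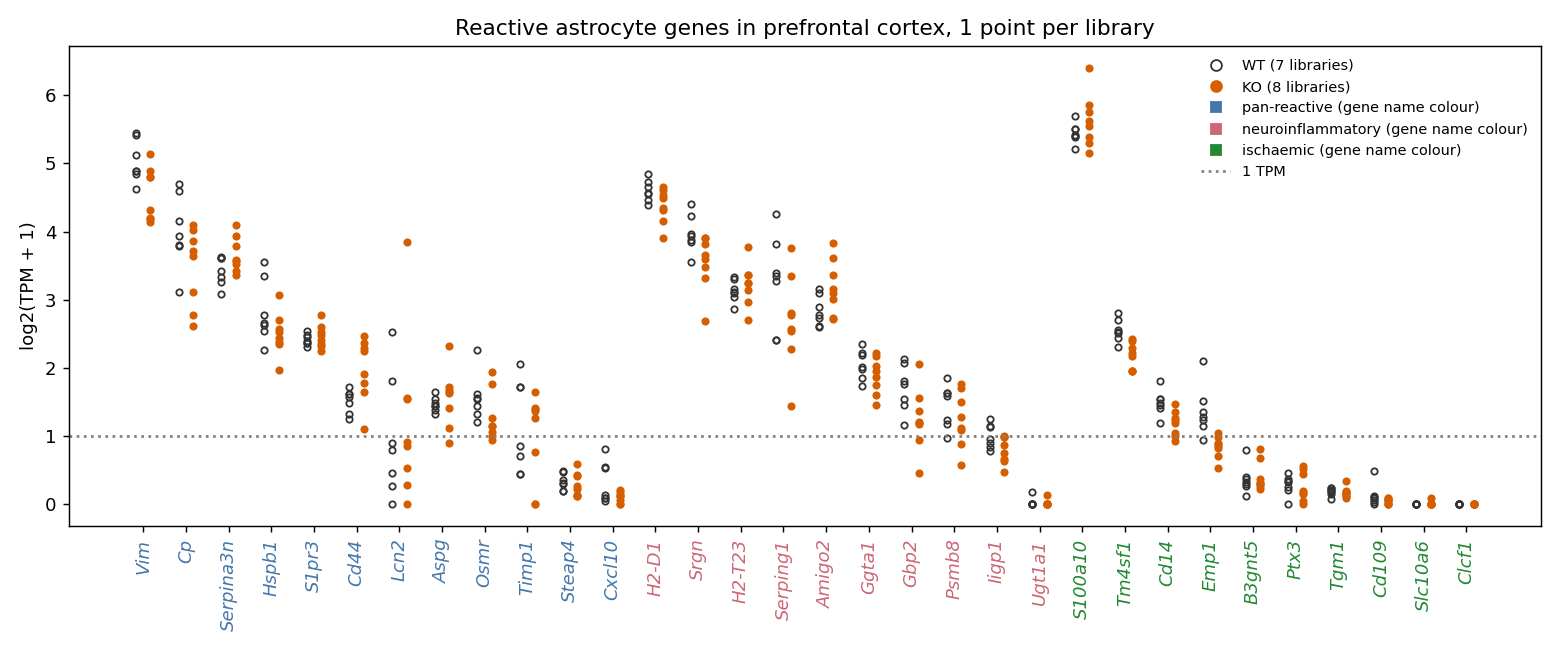
Level of all 32 reactive genes as log2(TPM + 1) (vertical axis), 1 point per library, with WT as open and KO as filled circles and the class given by the colour of the gene name. S100a10, Vim and H2-D1 lie highest, 10 genes have a mean below 1 TPM, and WT and KO points overlap for all 22 tested genes.

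In the ischaemic class, Tm4sf1, Emp1 and Cd14 had lower means in KO cortex and S100a10 a higher one. Tm4sf1 encodes a tetraspan membrane protein that is abundant in endothelial cells (ENSMUSG00000027800, chromosome 3, 57285611 to 57301988, mm10). Its WT libraries lay between 3.97 and 6.01 TPM with a median of 4.75, and its KO libraries between 2.86 and 4.37 TPM with a median of 3.60. Every one of the 8 KO libraries lay under the WT mean, which 4.51% of all tested genes showed, and 6 lay under the lowest WT library. The mean was 4.90 ± 0.675 TPM in the 7 WT libraries and 3.54 ± 0.623 TPM in the 8 KO libraries (SD), a log2 difference of -0.38 ± 0.10 (SE; limma p = 0.00135, adjusted p = 0.259; exact two-sided permutation p = 0.00171). The difference stayed between -0.34 and -0.42 when any library was left out.

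Emp1, a tetraspan protein of epithelial and endothelial membranes (ENSMUSG00000030208, chromosome 6, 135362545 to 135383173), was at 0.927 to 3.28 TPM in WT with a median of 1.42, and at 0.449 to 1.06 TPM in KO with a median of 0.825. Again each of the 8 KO libraries lay under the WT mean and 6 under the lowest WT library, while WT 7 at 3.28 TPM lay far above the other WT libraries. The log2 difference was -0.52 ± 0.14 (SE; limma p = 0.00198, adjusted p = 0.271; exact permutation p = 0.000622), and it was -0.40 without WT 7. It was -0.90 with a pseudocount of 0.1, since the scale of log2(TPM + 1) shrinks the differences of genes near 1 TPM, and the KO mean was 48.4% of the WT mean. Emp1 was the 1 tested reactive gene whose KO mean, 0.800 TPM, was under the filter, so it was tested only through its WT level.

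Cd14, the co-receptor for bacterial lipopolysaccharide that marks myeloid cells (ENSMUSG00000051439, chromosome 18, 36725067 to 36726798), was at 1.29 to 2.48 TPM in WT with a median of 1.79, and at 0.903 to 1.77 TPM in KO with a median of 1.31. All KO values of Cd14 lay under the WT mean and 4 under the lowest WT library. Its log2 difference was -0.31 ± 0.10 (SE; limma p = 0.00936, adjusted p = 0.336; exact permutation p = 0.00715). S100a10, the light chain of the annexin A2 complex, had 36.1 to 50.7 TPM in WT and 34.8 to 83.8 TPM in KO, with medians of 41.8 and 47.2. KO 1 was highest at 83.8 TPM, and the log2 difference of 0.19 ± 0.14 (SE; limma adjusted p = 0.583) was 0.08 without it.

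Markers of vessel cells also had lower means in KO cortex. Over all tested genes, 45.3% had lower means and 6.21% were lower at an unadjusted limma p under 0.05. All 18 endothelial markers had lower means in KO, 15 of them at an unadjusted limma p under 0.05 and 0 past the threshold, with Cdh5, Flt1 and Esam at log2 differences of -0.57, -0.72 and -0.37. Their summed level was 251 to 379 TPM in WT and 172 to 313 TPM in KO. All 12 mural markers were lower, 7 at an unadjusted p under 0.05, led by Myh11 at -0.66, Acta2 at -0.63 and Cspg4 at -0.53, with sums of 172 to 230 and 125 to 212 TPM. Cspg4 may also come from other cells of the punch. Microglia markers, which bear on Cd14, summed to 295 to 406 TPM in WT and 302 to 378 TPM in KO. Of the 15, 10 were lower and 5 higher, with a median log2 difference of -0.13 and a range of -0.34 to 0.63. At an unadjusted p under 0.05, 3 were lower (Sall1 at -0.30, Ctss at -0.17 and Csf1r at -0.21) and 0 higher. None of these markers was at 0, and their part in the values of Tm4sf1, Emp1 and Cd14 was not tested.

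**Figure D3:**
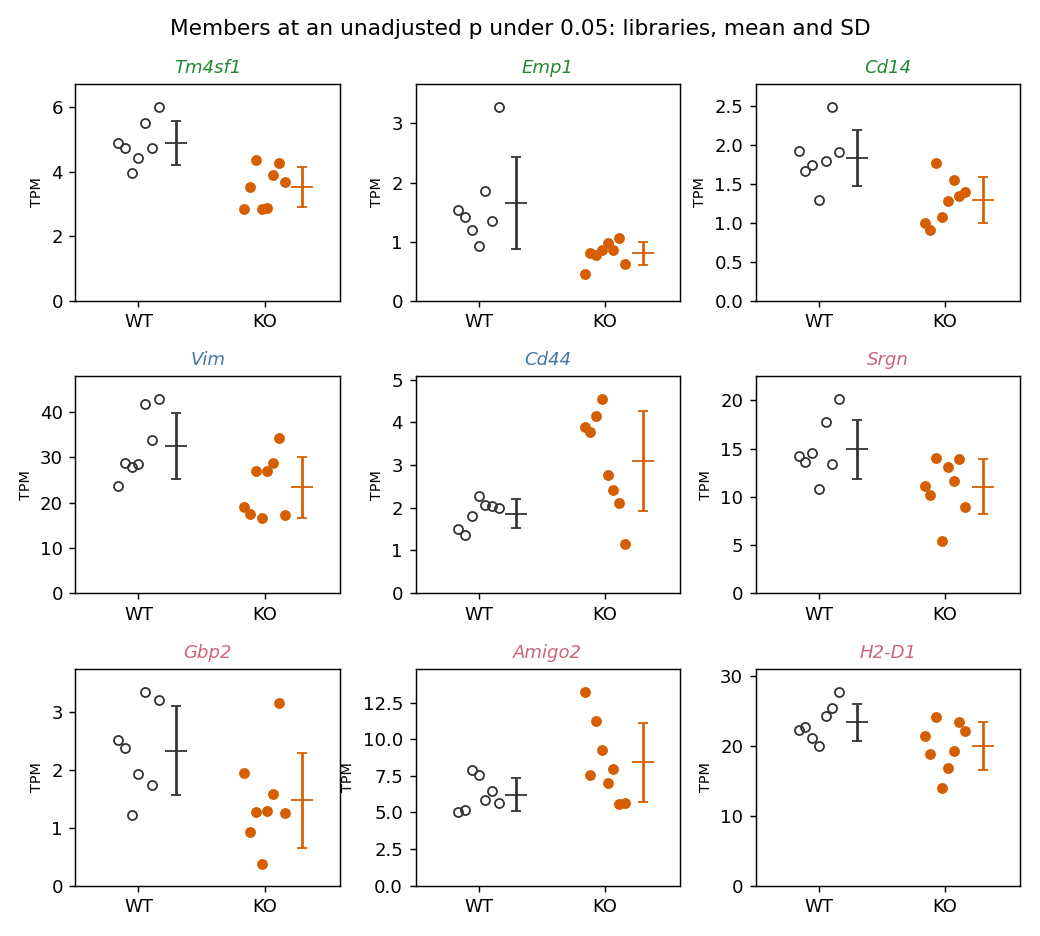
TPM (vertical axis, from 0) of the 9 reactive genes with an unadjusted p under 0.05, 1 point per library, WT open and KO filled, with the mean and SD at the right of each group. KO points lie below the WT mean in all 8 libraries for Tm4sf1, Emp1, Cd14 and Srgn, WT 7 is the high Emp1 point, and 6 of 8 KO points of Cd44 lie above the highest WT point.

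Among pan-reactive genes the structural and adhesion genes had differences of opposite sign. Vim, the intermediate filament vimentin of reactive astrocytes and of endothelial and mural cells (ENSMUSG00000026728, chromosome 2, 13573927 to 13582826), was at 23.7 to 42.8 TPM in WT with a median of 28.7, and at 16.6 to 34.2 TPM in KO with a median of 22.9. It was below the WT mean in 7 of 8 KO libraries, all but KO 7. The log2 difference was -0.48 ± 0.17 (SE; limma p = 0.0119, adjusted p = 0.339; exact permutation p = 0.0232), and -0.37 without KO 1 and KO 8 (p = 0.0533).

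Cd44, the hyaluronan receptor (ENSMUSG00000005087, chromosome 2, 102811141 to 102901665), was at 1.37 to 2.28 TPM in WT with a median of 1.99, and at 1.14 to 4.54 TPM in KO with a median of 3.27. KO libraries were spread more widely than WT: 6 of 8 lay above the highest WT library, and KO 8 lay below the lowest. For Cd44 the log2 difference was 0.47 ± 0.17 (SE; limma p = 0.0166, adjusted p = 0.364; exact permutation p = 0.0278), and 0.56 without KO 1 and KO 8 (p = 0.00135). The KO mean of Cd44 was 166% of the WT mean.

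Serpina3n, a secreted protease inhibitor that is a main marker of reactive astrocytes, was at 7.45 to 11.4 TPM in WT and 9.27 to 16.1 TPM in KO, with medians of 9.69 and 10.97. Its log2 difference of 0.24 ± 0.12 (SE; limma p = 0.0549, adjusted p = 0.432; exact permutation p = 0.0706) was short of the threshold, and 6 KO libraries of 8 were above the WT mean. Serpina3 genes are close paralogs, so its value is uncertain. Cp, the copper ferroxidase ceruloplasmin, was at 7.63 to 25.1 TPM in WT and 5.12 to 16.1 TPM in KO, with medians of 14.4 and 11.8, and had -0.53 ± 0.26 (adjusted p = 0.433). Hps3 lies on the opposite strand at the Cp locus and was at 9.68 TPM, and no strand setting is given.

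Osmr, the receptor for oncostatin M, had -0.28 ± 0.17 (SE) and the small heat shock gene Hspb1 had -0.32 ± 0.19. S1pr3, a sphingosine 1-phosphate receptor, was the steadiest gene, at 3.95 to 4.81 TPM in WT and 3.75 to 5.85 TPM in KO, with a difference of 0.05 and a 95% interval of -0.12 to 0.22. Gm32834 overlaps S1pr3 on the opposite strand at 2.43 TPM. Aspg, an asparaginase gene, had 0.09 ± 0.16, a sign that turned to -0.02 without KO 8. Lcn2, the secreted lipocalin that is strongly induced in reactive astrocytes, ranged from 0 to 4.75 TPM in WT and from 0 to 13.3 TPM in KO. Its difference of 0.22 ± 0.50 was -0.16 without KO 3, the library at 13.3 TPM. Lcn2 is also a neutrophil gene. Of the listed neutrophil genes S100a8, S100a9, Retnlg, Ly6g and Ngp, values are reported here for S100a9 and Ngp alone. These were at 3.73 and 0.788 TPM in KO 3, within the ranges of the other libraries. S100a9 and Ngp do not stand for the whole list, and the part of neutrophils in the Lcn2 value was not tested.

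Timp1, a metalloproteinase inhibitor, had a difference of -0.16 ± 0.31 and was listed at 0 in KO 2 and KO 3. It lies inside Syn1 on the opposite strand, a neuronal gene at 574 TPM, so its reads cannot be assigned with certainty. Steap4, a metalloreductase gene, had means of 0.256 TPM in WT and 0.224 TPM in KO. The chemokine gene Cxcl10, an interferon target, had means of 0.271 TPM in WT and 0.0750 TPM in KO and was not tested. WT 3, WT 5 and WT 7 held it at 0.456, 0.444 and 0.751 TPM, while the highest KO library was at 0.156 TPM. Art3 overlaps Cxcl10 on the opposite strand at 3.38 TPM and no strand setting is given, so the Cxcl10 values are uncertain.

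The neuroinflammatory class held genes of antigen presentation, interferon response and the complement system. Of its 8 tested genes, 6 had lower means in KO, against 45.3% of all tested genes. H2-D1, a class I antigen-presenting molecule (ENSMUSG00000073411, chromosome 17, 35262730 to 35267499), was at 20.05 to 27.8 TPM in WT with a median of 22.7, and at 14.0 to 24.2 TPM in KO with a median of 20.4. Its log2 difference was -0.22 ± 0.11 (SE; limma p = 0.0495, adjusted p = 0.42; exact permutation p = 0.0583), with 6 of 8 KO libraries below the WT mean, and p was under 0.05 in 6 of the 15 fits that left out 1 library. H2-T23, a non-classical class I gene, had 0.10 ± 0.13, which was -0.02 without KO 1 and KO 8. Class I genes are near-identical in parts, so both values are uncertain.

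Srgn, the proteoglycan serglycin of endothelial and blood-derived cells (ENSMUSG00000020077, chromosome 10, 62493833 to 62527451), was at 10.8 to 20.1 TPM in WT with a median of 14.2, and at 5.43 to 14.0 TPM in KO with a median of 11.4. All KO values of Srgn lay under the WT mean and 3 under the lowest WT library. The log2 difference was -0.42 ± 0.17 (SE; limma p = 0.0216, adjusted p = 0.377; exact permutation p = 0.0258), with p = 0.0532 without WT 7. Gbp2, an interferon-induced guanylate-binding GTPase (ENSMUSG00000028270, chromosome 3, 142620602 to 142638008), was at 1.23 to 3.36 TPM in WT with a median of 2.39, and at 0.374 to 3.17 TPM in KO with a median of 1.29. KO 7 stood alone among KO libraries at 3.17 TPM, and the other 7 were below the WT mean. The log2 difference was -0.46 ± 0.20 (SE; limma p = 0.034, adjusted p = 0.391; exact permutation p = 0.0505), -0.74 with a pseudocount of 0.1, and p was under 0.05 in 9 of the 15 fits that left out 1 library.

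Amigo2, an adhesion molecule gene that neurons also express (ENSMUSG00000048218, chromosome 15, 97244125 to 97247287), was at 5.05 to 7.93 TPM in WT with a median of 5.82, and at 5.56 to 13.2 TPM in KO with a median of 7.75. KO 1, KO 3, KO 4 and KO 6 lay above the highest WT library. Its log2 difference was 0.35 ± 0.16 (SE; limma p = 0.0404, adjusted p = 0.401; exact permutation p = 0.0587), and Pced1b overlaps the gene on the opposite strand at 6.11 TPM. Serping1, the inhibitor of complement component C1, had a log2 difference of -0.59 ± 0.32 (SE; limma p = 0.0844, adjusted p = 0.462; exact permutation p = 0.122). It also had a wide spread, 4.31 to 18.1 TPM in WT and 1.71 to 12.5 TPM in KO. Meningeal fibroblast markers, which bear on Serping1, summed to 98.8 to 302 TPM in WT and 52.5 to 220 TPM in KO. Of these markers 10 of 10 were lower, against 45.3% of all tested genes. At an unadjusted p under 0.05, 2 were lower (Lum at -0.61 and Pdgfra at -0.38), against 6.21%. Pdgfra may also come from other cells of the punch, and the part of these markers was not tested.

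Psmb8, a subunit of the immunoproteasome, had -0.20 ± 0.18 (SE) and Ggta1, a galactosyltransferase gene, -0.17 ± 0.13. Iigp1, an interferon-induced GTPase with close paralogs, lay just under the filter at 0.871 TPM, next to Emp1 at 1.20 and Timp1 at 1.26 TPM just above it. Its KO libraries were at 0.387 to 1.005 TPM and its WT libraries at 0.717 to 1.38 TPM, and each KO value lay under the WT mean. With no filter its difference was -0.20 ± 0.10 (SE; limma adjusted p = 0.608). Ugt1a1 was listed at 0 in all libraries but WT 4 and KO 2, and it shares exons with other Ugt1a genes, so its value is uncertain.

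Read by class, the median difference of the tested genes was -0.05 for pan-reactive genes, with 5 lower and 5 higher, -0.21 for neuroinflammatory genes and -0.34 for ischaemic genes, against 0.02 over all tested genes, of which 45.3% were lower. The pan-reactive median changed sign with single libraries, to 0.02 without WT 5 and to 0.02 without KO 2. The ischaemic median rests on 4 genes: it was -0.31 over the 3 without Emp1, -0.02 without a filter on low values, where 9 of the 10 genes entered, and 0.19 at a mean of at least 5 TPM, where S100a10 alone was left. Over all 12, 10 and 10 genes, tested or not, the medians were -0.10, -0.20 and -0.01. Classes were not tested against each other. The mean log2(TPM + 1) of the ischaemic class was 1.18 ± 0.0814 in the 7 WT libraries and 1.07 ± 0.0458 in the 8 KO libraries (SD). That of the neuroinflammatory class was 2.40 ± 0.118 and 2.22 ± 0.217, and that of the pan-reactive class 2.08 ± 0.167 and 2.002 ± 0.200.

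**Figure D4:**
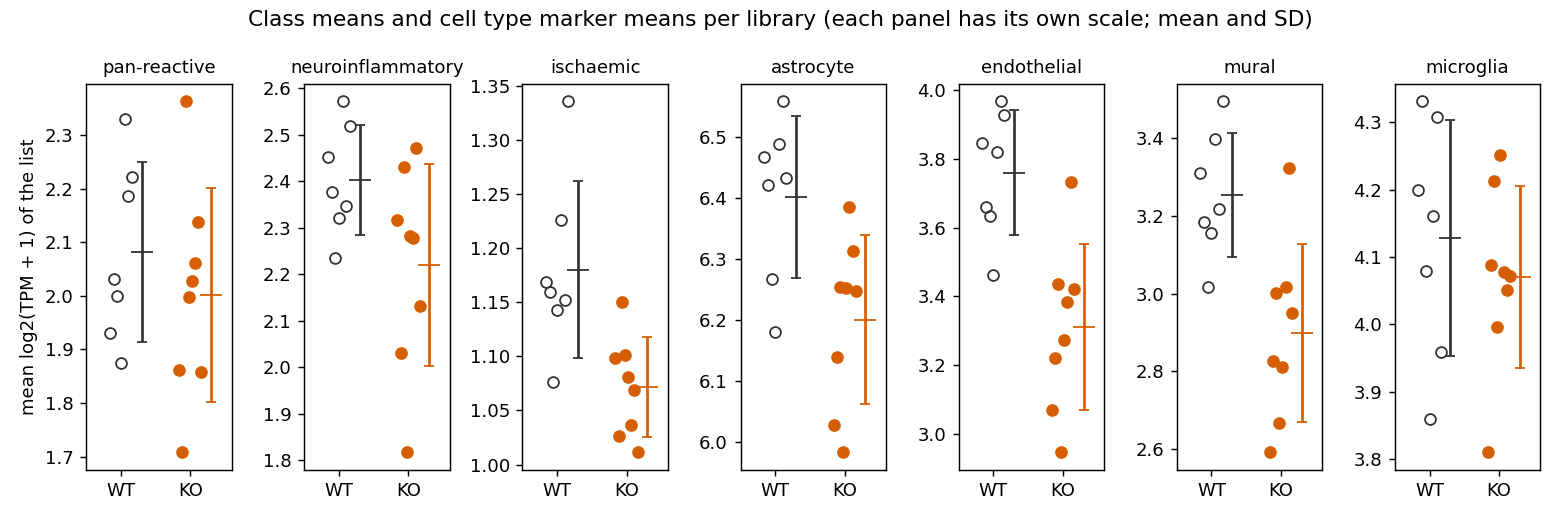
Mean log2(TPM + 1) of each reactive class and of astrocyte, endothelial, mural and microglia markers (vertical axes, each panel on its own scale), 1 point per library, with the mean and SD of each group. The groups overlap in all 7 panels, and KO 7 is the highest KO library for endothelial and mural markers, at 3.73 and 3.32.

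Genes upstream of reactivity and beside these classes were taken from 3 lists, chosen with earlier results of these data known, and 0 passed the threshold. Of 26 inducers, receptors and signalling genes, 19 were tested and all 19 had lower means in KO, with a median of -0.15 and 4 at an unadjusted p under 0.05. Over all tested genes, 45.3% had lower means and 6.21% were lower at that p. The lowest p-values belonged to Tgfbr2, a receptor of transforming growth factor β, at -0.51 ± 0.15, the interleukin-1 receptor gene Il1r1 at -0.42 ± 0.13 and Il6st, the shared receptor subunit of the interleukin-6 family, at -0.29 ± 0.11 (SE; limma adjusted p = 0.304, 0.311 and 0.354). The cytokine genes Il1a, Il1b, Tnf, Il6, Lif, Osm and Cntf were all below a mean of 1 TPM.

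Among 20 antigen presentation and interferon genes, 18 were tested and 14 were lower, with a median of -0.18 and 7 lower at an unadjusted p under 0.05. For this list and the next, the shares over all tested genes were 45.3% lower and 6.21% lower at that p. Irgm1, an immunity-related GTPase, had -0.29 ± 0.08, the interferon regulator Irf7 had -0.71 ± 0.24 and Irf9, a DNA-binding factor of the interferon response, had -0.51 ± 0.19 (SE; limma adjusted p = 0.304, 0.336 and 0.371). Of 13 other reactive astrocyte genes, 9 were tested and 8 were lower, with a median of -0.35 and 5 at an unadjusted p under 0.05, Gfap among them. Fbln5, an elastic fibre gene also used by vessels, had -0.77 ± 0.16, the adhesion gene Vcam1 -0.35 ± 0.11 and Nes, the filament gene nestin, -0.46 ± 0.18 (SE; limma adjusted p = 0.206, 0.311 and 0.377). C3, a complement gene widely used as a marker of neuroinflammatory astrocytes, was at a mean of 0.0246 TPM.

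The reactive genes did not vary as 1 block over the libraries. Over the 231 pairs of tested genes, with group means removed, the median Pearson r was 0.17 and 143 pairs were positive. After adjustment over all pairs, 1 pair had a permutation p of r under 0.05, Hspb1 with Gbp2, and 0 pairs did by both r and rho. Hspb1 and Gbp2 had r = 0.86 (permutation p = 4e-05, adjusted 0.00924) and rho = 0.76 (p = 0.00136, adjusted 0.122), and r = 0.81 without the 2 libraries farthest from the median of Hspb1. Within WT libraries r was 0.90 and within KO libraries 0.91. Both genes were highest in WT 5 and WT 7 among WT libraries and in KO 7 among KO libraries. The mean log2(TPM + 1) of meningeal fibroblast markers was also highest there, at 4.39, 4.01 and 3.93. The part of these markers in the pair was not tested. The next 4 pairs were Hspb1 with Tm4sf1 (r = 0.75, rho = 0.70), Psmb8 with Srgn (r = 0.79, rho = 0.70), Vim with Srgn (r = 0.75, rho = 0.75) and Serping1 with Gbp2 (r = 0.77, rho = 0.80). Their permutation p-values of r were 0.00086, 0.00089, 0.00115 and 0.00235, with adjusted values of 0.0664, 0.0664, 0.0664 and 0.0816. For rho the permutation p-values were 0.00505, 0.00598, 0.00239 and 0.00082, adjusted 0.154, 0.154, 0.13 and 0.122. Without the 2 farthest libraries r was 0.72, 0.59, 0.68 and 0.72.

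Cd44 and Amigo2, the pair of genes with higher means in KO at an unadjusted p under 0.05, were looked at after their values were seen. They had r = 0.75 (permutation p = 0.00616, adjusted 0.0956) and rho = 0.78 (p = 0.00302, adjusted 0.13), and r = 0.75 without the 2 farthest libraries. Amigo2 and S100a10 had r = 0.73 (permutation p = 0.00779, adjusted 0.103) and rho = 0.59 (p = 0.0385, adjusted 0.26), which fell to r = 0.47 without the 2 farthest libraries and so rests on them.

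**Figure D5:**
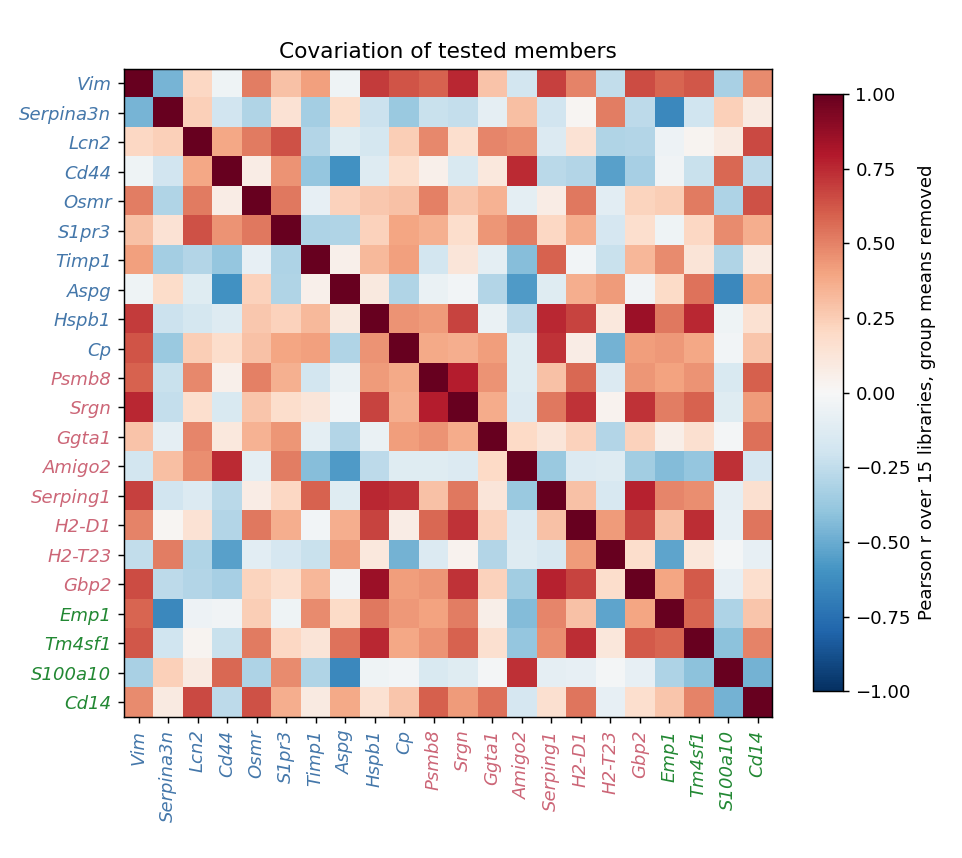
Pearson r between the 22 tested reactive genes over 15 libraries after removing group means, from -1 (blue) to 1 (red), with gene names coloured by class. Red squares join Vim, Hspb1, Srgn, Gbp2, H2-D1 and Tm4sf1, with the deepest between Hspb1 and Gbp2 at 0.86, while Cd44 and Amigo2 are red with each other at 0.75.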

How the data were processed

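The authors deposited 1 table of TPM values per Ensembl gene and library, made with Trimmomatic, HISAT2 and StringTie on the mm10 build, per the submitters' processing notes; the sources used here name no version, annotation or strand setting. The 15 columns summed to 999789 to 999899 TPM. Symbols and coordinates came from GENCODE M21 (54723 of 54838 IDs matched, and IDs sharing a symbol were summed), promoters from RefSeq GRCm38.p6.

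Genes that reached a mean of 1 TPM were analysed as log2(TPM + 1) in R 4.3.3 with limma 3.58.1 (intensity trend, two-sided), adjusted by Benjamini-Hochberg over all 18656. Depth is unknown, so no count model was used. Exact permutation tests used all 6435 ways to assign the group names, and correlations 100000 permutations within groups (scipy 1.17.1).

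The genes and lists were chosen with earlier results of these data known. All 32 genes were to be named, with up to 3 of each other list at an unadjusted p under 0.05 and the 5 pairs of lowest p. Alternatives covered the pseudocount, filter, scaling, variance prior, array weights, a replicate block and left-out libraries.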

Additional observations from a re-analysis of the deposited data

Results flagged for a closer look

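Among the 44 groups of libraries checked (22 tested genes in WT and in KO), 5 held a library far from the others of its group, where chance flags about 1 in 20. Lcn2 was at 13.3 TPM in KO 3, Aspg at 4.02 TPM in KO 8 and S100a10 at 83.8 TPM in KO 1. Osmr was at 3.77 TPM in WT 6 and Emp1 at 3.28 TPM in WT 7.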

How the results depend on the processing

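No reactive gene passed the threshold under any of the 26 alternative fits. In fits that leave out 1 library, 4 to 11 of the genes were lower and 1 to 3 higher at an unadjusted p under 0.05, where 4.33% to 7.52% and 3.39% to 8.08% of all tested genes were, and the class medians ranged from -0.12 to 0.02 (pan-reactive), -0.27 to -0.15 (neuroinflammatory) and -0.38 to -0.31 (ischaemic). At a mean of at least 5 TPM, with 10 genes tested, 3 were lower and 1 higher, against 5.77% and 5.69% of all tested genes. The pan-reactive and ischaemic medians were then -0.40 and 0.19. The ischaemic median was -0.47 with a pseudocount of 0.1 and -0.019 with no filter. Signs turned for Aspg (-0.024 with the replicate block or without KO 8, which use the same libraries, and -0.024 to 0.18 over fits without 1 library), H2-T23 (-0.017 without KO 1 and KO 8) and Lcn2 (-0.16 without KO 3, and up to 0.48 without WT 6). The replicate block gave 7 lower, 3 higher and 0 called, where 7.73% of all tested genes were lower and 7.17% higher at that p. No label says what same-numbered libraries share. Their deviations correlated at -0.04 to 0.12 and 1 of 7 exceeded 0.1, which cannot show whether they were paired. Depth is unknown, and genes near 1 TPM depend most on the pseudocount.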
